A study of Mus musculus with 6 samples.

Results

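The 4 ID genes and 3 feedback genes of BMP signaling, Smad6, Smad7 and Bambi, were examined on Mouse Genome 430 2.0 arrays of cultured hair follicle bulge cells. Their probe sets were those annotated to exactly 1 of these gene symbols, which gave 12 of the 45101 probe sets on the array and 7 of the 18193 genes measured. The cells were epithelial cells of the bulge of vibrissae from mice of 7 to 8 weeks, cultured in atelocollagen for 6 days. NFFS medium held Noggin, FGF7, FGF10 and SAG, an agonist of hedgehog signaling, and NFFSE medium held the same factors and EGF. Noggin binds BMP ligands and blocks them, so that cells in both media grew with a BMP inhibitor and the media differed by EGF. There were 3 arrays for each medium, labelled as biological replicates, and the series design describes cells separated between the media in an experiment done 3 times. Niche cells of the bulge were collected together with its stem cells. The study's text names vibrissa follicles of various hair cycle stages, whereas a figure caption names the growing phase. The number of mice behind each culture was not given, and a culture without Noggin was not analysed here.

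BMP ligands bind receptor kinases that phosphorylate SMAD1, SMAD5 and SMAD9, which enter the nucleus with SMAD4 and switch on target genes. The ID genes are among the best known direct targets. ID proteins hold a helix-loop-helix (HLH) domain but no DNA-binding region, and they pair with E proteins such as TCF3, TCF4 and TCF12 and keep them from DNA. Smad6, Smad7 and Bambi are also induced by the pathway and dampen it. In the hair follicle, BMP signaling is known for holding bulge stem cells in quiescence. The ID genes also respond to other signals, among them growth factors, so that their RNA is not a measure of BMP signaling alone.

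The deposited values are MAS5 signals, 1 intensity for each probe set on a linear scale, which the authors had scaled to the same trimmed mean on every array. Differences are NFFSE minus NFFS on the log2 scale, and genes with an adjusted p under 0.05 in limma, a linear model with moderated variances, were called (Benjamini-Hochberg over 18193 genes). By this rule 26.2% of all genes were called, 11.0% higher and 15.2% lower in NFFSE, and 40.5% of all genes had arrays of the media that did not overlap, 18.5% with NFFSE above and 22.0% with NFFSE below. With the arrays centered on their medians, the typical gene shifted from -0.011 to 0.19 (median over all genes), and the calls split into 2911 higher and 1784 lower in place of 2002 and 2771. Over the Gapdh controls, the log2 signal at the 3' end less that at the 5' end, a measure of RNA integrity, was -0.38 to -0.36 on the NFFSE arrays and -0.63 to -0.60 on the NFFS arrays. Over the Actb controls it was 0.26 to 0.29 on the NFFSE arrays and 0.26 to 0.37 on the NFFS arrays, which overlapped, with the mean lower in NFFSE where that of Gapdh was higher. The part of either in the differences below was not tested.

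Id1, Id2 and Id3 rose in NFFSE, Id4 and Bambi fell, and Smad6 and Smad7 did not pass the test. Thus 5 of the 7 genes were called, 3 higher and 2 lower, beside 26.2% of all genes. These are not like genes, since none of the 7 lay below the 40th percentile of mean signal. With genes below that percentile left out, the called share of all genes was larger, with 2058 of 10916 higher and 2784 lower. None of the 7 genes had an array at or under 22.7, the highest signal of the TrpnX control probe sets, which match no mouse transcript. In bulk RNA, fewer cells of a type and less RNA per cell cannot be told apart, which holds for each gene here.

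Id1, which encodes the founding member of the family, showed the largest difference of the 7 genes as read from their brightest probe sets. Its signals were 2841, 2665 and 1189.8 in NFFSE replicates 1, 2 and 3 and 352, 266 and 224 in NFFS replicates 1, 2 and 3. All NFFSE arrays were above all NFFS arrays, and NFFSE replicate 3 was the lowest of its medium. The means were 2232 ± 907 (SD, n = 3) in NFFSE medium and 281 ± 65.0 (SD, n = 3) in NFFS medium, a log2 difference of 2.92 (standard error 0.30, adjusted p = 7.5e-05, limma), or 7.54-fold. By size this difference was number 338 among the 18193 genes.

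Id3 followed with signals of 6303, 5816 and 3102 in NFFSE and 1272, 883 and 847 in NFFS, in the order of the replicate numbers. Again the media did not overlap, and NFFSE replicate 3 was the lowest of its medium. The log2 difference was 2.30 (standard error 0.25, adjusted p = 1.1e-04, limma), 4.93-fold higher in NFFSE.

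Id2, the family member that the study displayed among transcription factors chosen on these arrays, had signals of 5735, 4603 and 2945 in NFFSE and 1475, 1071 and 805 in NFFS on its brightest probe set. Since it was chosen on these samples, its direction is not independent evidence. The log2 difference was 1.98 (standard error 0.26, adjusted p = 3.1e-04, limma), or 3.94-fold. Its other probe sets gave 2.34 (adjusted p = 0.0035, limma over all probe sets) and a smaller increase on the third (adjusted p = 0.022, limma over all probe sets). The third probe set had the lowest signals, with 131 ± 26.4 (SD, n = 3) in NFFSE medium and 64.4 ± 2.16 (SD, n = 3) in NFFS medium, so that the size but not the direction of the Id2 difference depended on the probe set.

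Id4 went the other way. Its brightest probe set had signals of 1791, 1860.0 and 2364 in NFFSE and 9266, 8309 and 9320.2 in NFFS. Every NFFSE array was below every NFFS array, and the replicates of each medium lay close together. The log2 difference was -2.17 (standard error 0.12, adjusted p = 2.3e-06, limma), so that Id4 was 4.50-fold lower in NFFSE. The other Id4 probe sets gave -2.31 (adjusted p = 7.6e-05, limma over all probe sets) and -3.04 (adjusted p = 1.2e-06, limma over all probe sets). All 3 Id4 probe sets were therefore called lower, as all 5 probe sets of Id1, Id2 and Id3 were called higher, whereas 7.69% of the 45037 probe sets tested were called higher and 12.7% lower, 20.4% in all.

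**Figure D1:**
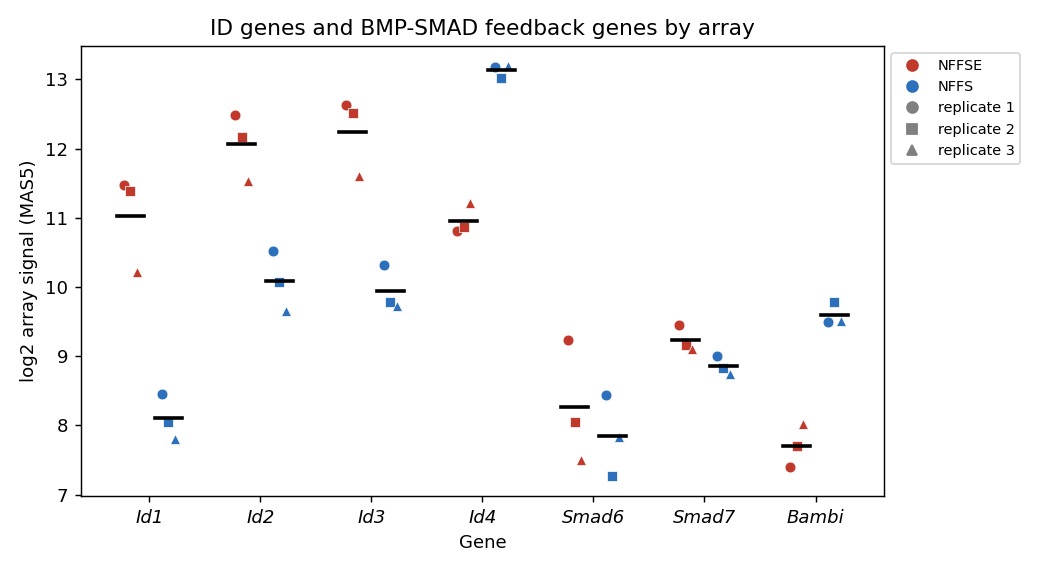
Log2 array signal (vertical axis) of the 7 genes, each read from its brightest probe set. Red points are NFFSE arrays and blue points NFFS arrays, shapes give the replicate number and black lines the mean of the 3 arrays. Id1, Id2 and Id3 lie higher in NFFSE, Id4 and Bambi lie lower, and the arrays of Smad6 overlap between media.

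Bambi encodes a pseudoreceptor, a receptor-like protein without a kinase domain that blocks signaling by BMP and TGF-beta receptors. Its signals were 169, 209 and 259 in NFFSE and 721, 882 and 728 in NFFS. The media did not overlap, and NFFSE replicate 3 was the highest of the NFFSE arrays. The log2 difference was -1.89 (standard error 0.18, adjusted p = 5.2e-05, limma), 3.70-fold lower in NFFSE. Of the 3 feedback genes, Bambi alone was called with the reported settings.

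Smad7 encodes an inhibitory SMAD that acts on both BMP and TGF-beta receptors. Its signals were 698, 572 and 553 in NFFSE and 513, 455 and 430.0 in NFFS. All NFFSE arrays were above all NFFS arrays. The log2 difference was 0.38 (95% confidence interval 0.055 to 0.70, adjusted p = 0.085, limma), and the other Smad7 probe set gave 0.41 (95% confidence interval -0.034 to 0.85, adjusted p = 0.20, limma over all probe sets). The call depended on the scaling: Smad7 was called higher in NFFSE with the arrays centered on their medians (0.58, adjusted p = 0.037, limma) and after quantile normalization (0.50, adjusted p = 0.022, limma).

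Smad6 encodes the inhibitory SMAD that acts mainly on BMP signaling. Its signals were 604, 264 and 181 in NFFSE and 347, 155 and 228 in NFFS. The media overlapped, and NFFSE replicate 1 was the highest of the 6 arrays. The log2 difference was 0.41 (95% confidence interval -0.52 to 1.35, adjusted p = 0.54, limma), and without NFFSE replicate 1 it was -0.075 (adjusted p = 0.91, limma). The interval of Smad6 holds both a decrease and an increase, so that these arrays do not settle its direction or whether it changed.

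**Figure D2:**
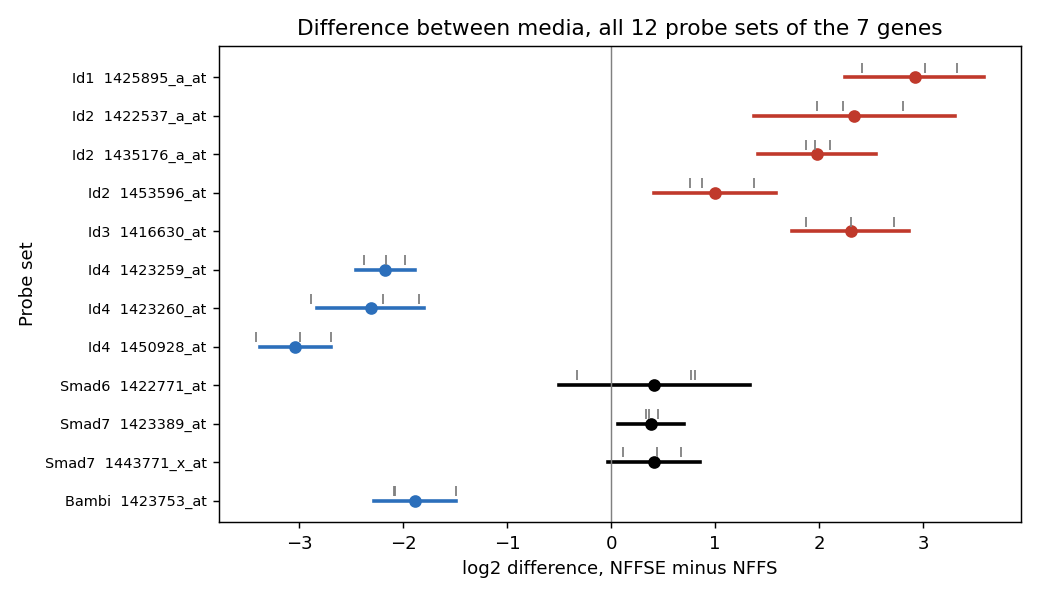
Log2 difference, NFFSE minus NFFS (horizontal axis), of all 12 probe sets of the 7 genes (vertical axis). Points are estimates and horizontal bars 95% confidence intervals from limma over all probe sets, red for called higher, blue for called lower and black for not called, and grey ticks are the differences between arrays of equal replicate number. The probe sets of 1 gene lie on the same side of 0, and the bars of Smad6 and of the dimmer Smad7 probe set cross 0.

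The replicates of the 7 genes varied together in part. NFFSE replicate 3 had the lowest NFFSE signal of Id1, Id2, Id3, Smad6 and Smad7 and the highest of Id4 and Bambi, so that this culture lay nearest to the NFFS cultures for Id1, Id2, Id3, Id4 and Bambi. In NFFS, replicate 3 also had the lowest signals of Id1, Id2, Id3 and Smad7. Over the whole array too, NFFSE replicate 3 lay nearest to NFFS by its median signal. That median was 65.0, against 56.5 and 57.7 on NFFSE replicates 1 and 2 and 66.5 to 70.6 on the NFFS arrays. Its part in the pattern of the 7 genes was not tested. Within the 3 pairs of arrays with the same replicate number, the log2 difference of Id1 was 3.01, 3.33 and 2.41. That of Id2 was 1.96, 2.10 and 1.87, and that of Id3 was 2.31, 2.72 and 1.87. For Id4 they were -2.37, -2.16 and -1.98, and for Bambi -2.09, -2.08 and -1.49. All 3 such differences thus had the same direction for these 5 genes and for Smad7 (0.45, 0.33 and 0.36), whereas those of Smad6 were 0.80, 0.77 and -0.33. Without NFFSE replicate 3, the difference of Id1 was 3.32 and that of Id4 was -2.29, and both were called.

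The stretches before the transcription starts are shown for Id2 and Id3, which rose, and for Id4, which fell, to set members of 1 family that moved in opposite directions side by side. The sequences are RefSeq promoters of the mouse genome build GRCm38.p6, and each line gives the 250 bases up to the start. Only the promoters of Id2, Id3, Id4 and Smad6 were examined. None was found for Id1, and those of Smad7 and Bambi were left out of the search. Capitals mark the letters GGCGCC, a GC-rich site of SMAD1 and SMAD5, and GTCT, the core letters of SMAD sites, on either strand, so that GTCT also stands as AGAC. Id2 is at chr12:25096093-25096342 on the minus strand, Id3 at chr4:136143572-136143821 on the plus strand and Id4 at chr13:48260866-48261115 on the plus strand.
Id2: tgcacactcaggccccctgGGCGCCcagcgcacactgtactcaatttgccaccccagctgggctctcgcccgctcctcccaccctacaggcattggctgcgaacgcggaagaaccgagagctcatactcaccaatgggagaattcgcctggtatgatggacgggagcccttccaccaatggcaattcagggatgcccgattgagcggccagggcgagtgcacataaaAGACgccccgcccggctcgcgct
Id3: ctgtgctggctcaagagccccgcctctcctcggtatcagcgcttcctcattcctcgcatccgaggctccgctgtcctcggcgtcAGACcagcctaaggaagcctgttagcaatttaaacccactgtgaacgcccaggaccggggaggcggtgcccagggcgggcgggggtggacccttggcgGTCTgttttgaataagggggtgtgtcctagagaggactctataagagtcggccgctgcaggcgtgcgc
Id4: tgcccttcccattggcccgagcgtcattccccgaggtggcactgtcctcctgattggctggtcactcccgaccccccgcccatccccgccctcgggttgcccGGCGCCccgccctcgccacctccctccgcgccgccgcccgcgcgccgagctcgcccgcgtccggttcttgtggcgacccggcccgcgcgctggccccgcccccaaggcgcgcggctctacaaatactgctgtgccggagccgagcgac
GGCGCC stood 1 time in the window of Id2, which rose, 1 time in that of Id4, which fell, and 0 times in that of Id3. GTCT stood 1 time in the window of Id2, 3 times in that of Id3 and 0 times in that of Id4. Whether either set of letters bears on the direction was not tested. The windows searched had 300 bases, 250 before and 50 after the start, and 11.9% of the 32851 mouse windows of this length held GGCGCC and 88.0% held GTCT, which overlaps no GGCGCC in the 3 windows shown. The GC content of the 250 bases was 62.8% for Id2, 62.8% for Id3 and 75.6% for Id4, against a median of 52.4% over all windows. CCAAT, the letters of a general promoter box, stood 3 times in the window of Id2, 2 times in that of Id4 and 0 times in that of Id3. Of all windows, 37.4% held it on either strand. The window of Smad6 held GTCTAGAC, a palindrome of the SMAD core letters, across the start used for this window. Of all windows, 0.213% held these letters at any place. The 30 bases that end with the palindrome are shown with it in capitals (chr9:64022056-64022085, minus strand). The listed span of the gene begins at base 64022085, the first base shown, so that the start of this window lies inside that span.
Smad6: agcgccgcggagccgccaaagtGTCTAGAC
These letters are matches in a window and not measured sites, and the Smad6 signal did not pass the test between the media.

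Of 88 genes on 8 lists of the pathway, 83 were measured: 16 were called higher in NFFSE and 26 lower, and 41 were not called, with a median log2 difference of -0.18 against -0.011 over all genes. Of the measured genes, 50.6% were called, beside 26.2% of all genes. These shares are not of like genes, since 13 of the 83 pathway genes were dim in both media, against 6689 of all 18193 genes. With dim genes filtered, the called share of all genes was larger than 26.2%, with 2058 of 10916 genes called higher and 2784 lower. Of the pathway genes, 16 were then called higher and 25 lower. The lists were also chosen with earlier results of these data known, and the part of either in the gap was not tested.

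Of 8 BMP ligands measured, 3 were called higher in NFFSE and the other 5 were not called, with a median log2 difference of 0.44. Bmp2 was 3.77-fold higher (1198 ± 26.7 (SD, n = 3) in NFFSE medium and 329 ± 103 (SD, n = 3) in NFFS medium), Bmp6 was 2.61-fold higher and Bmp7 less so (log2 difference 0.59). Gdf5, among the 5 not called, was at background on all 3 NFFSE arrays and on 2 of the 3 NFFS arrays, and without NFFS replicate 2 it was called lower. The call of Bmp7 ended without NFFSE replicate 3 (adjusted p = 0.062, limma) or NFFS replicate 3 (adjusted p = 0.056, limma), among other settings. Bmp4, a ligand of the follicle mesenchyme, had a log2 difference of 0.29 (adjusted p = 0.65, limma) with mean signals of 77.5 in NFFSE and 64.8 in NFFS.

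Of 11 receptors and co-receptors, 7 were called lower in NFFSE and the other 4 were not called, with a median log2 difference of -0.56. Neo1, a receptor of RGM co-receptors, was 2.14-fold lower, the type II receptor Acvr2a was 1.89-fold lower, the type I receptor Bmpr1b was 1.94-fold lower and the co-receptor Rgmb was 1.47-fold lower. Bmpr1a, the main type I receptor of skin epithelium, and Bmpr2 differed by -0.24 (adjusted p = 0.14, limma) and by -0.32 (adjusted p = 0.12, limma) on the log2 scale, and Bmpr2 was called lower without NFFS replicate 2 (-0.43, adjusted p = 0.038, limma) and with the replicate number as a block (adjusted p = 0.029, limma). With the arrays centered on their medians, 4 receptors were called lower and Rgmb was not (adjusted p = 0.086, limma). Averaged over its probe sets, Bmpr1a was called lower (-0.71, adjusted p = 0.0042, limma), the difference of Rgmb was -1.36, that of Bmpr2 was 0.12 (adjusted p = 0.61, limma), and Bmpr1b was not called when its probe sets were averaged (adjusted p = 0.12, limma).

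Of 6 SMAD transducers, 3 were called lower in NFFSE and the other 3 were not called, with a median log2 difference of -0.42. Smad5 was 2.03-fold lower (878 ± 64.3 (SD, n = 3) in NFFSE medium and 1783 ± 154 (SD, n = 3) in NFFS medium), Smad1 was 1.44-fold lower and Smad4, the partner of all receptor-activated SMADs, was 1.25-fold lower. With the arrays centered on their medians, Smad5 alone of these was called, and the call of Smad4 also ended without NFFSE replicate 2 (adjusted p = 0.11, limma), NFFSE replicate 3 (adjusted p = 0.098, limma) or NFFS replicate 3 (adjusted p = 0.085, limma). Smad9 was at background on all 3 NFFSE arrays and on 2 of the 3 NFFS arrays. Smad2 and Smad3, which carry TGF-beta and activin signals, did not pass the test. Smad3 differed by 0.035 (adjusted p = 0.90, limma). Smad2 differed by -0.18 (adjusted p = 0.39, limma) and was called lower with the mean of its probe sets (-0.51, adjusted p = 0.0087, limma).

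Of 11 secreted antagonists measured, 4 were called lower in NFFSE and 1 higher, and 6 were not called, with a median log2 difference of 0.033. Fstl1, a follistatin-like glycoprotein, was at background on all 3 NFFSE arrays and at least 45.5-fold lower there, and Bmper, which binds BMPs outside the cell, was at background on 2 of the 3 NFFSE arrays and at least 8.40-fold lower. Nbl1, a member of the DAN family of antagonists, was 2.61-fold lower and Sostdc1, an antagonist of BMP and WNT signaling, was 1.55-fold lower, with the call of Sostdc1 ending with the arrays centered on their medians (adjusted p = 0.067, limma). Fst, which encodes follistatin, was 2.08-fold higher, a call that ended without NFFSE replicate 1 (adjusted p = 0.052, limma) or 2 (adjusted p = 0.092, limma), with a floor under low signals (adjusted p = 0.13, limma), without the intensity trend (adjusted p = 0.12, limma) and by the methods' t-test after adjustment. Nog, whose protein was supplied in both media, was dim and was not called (log2 difference 0.16, adjusted p = 0.94, limma). It was at background on all 3 NFFSE arrays and on 1 of the 3 NFFS arrays.

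Of 15 intracellular regulators of SMADs, 4 were called higher in NFFSE and 2 lower, and 9 were not called, with a median log2 difference of 0.14. Pmepa1, a TGF-beta-induced inhibitor of SMAD signaling, was 1.45-fold higher, and Tob1, an antiproliferative protein that binds SMADs, was 1.55-fold higher, whereas the co-repressor Ski was 1.71-fold lower and the ubiquitin ligase Nedd4l 1.37-fold lower. The calls of Pmepa1 and Ski ended with the mean of their probe sets, those of Tob1 and Ski ended without the intensity trend, and that of Nedd4l ended with the arrays centered on their medians, although its difference moved from -0.45 to -1.46 with the mean of its probe sets. Usp15, a deubiquitinase of SMADs and 1 of the 4 called higher, had a log2 difference of 0.43 (adjusted p = 0.044, limma) that was -0.23 (adjusted p = 0.56, limma) with the mean of its probe sets, and its call also ended without NFFSE replicate 1 or 2 or NFFS replicate 2 or 3 (adjusted p from 0.086 to 0.15, limma).

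Of 10 other genes known to respond to BMP, 1 was called higher in NFFSE and 4 lower, and 5 were not called, with a median log2 difference of -0.29. Dlx5, a homeobox factor, rose to 683 ± 50.4 (SD, n = 3) in NFFSE medium from 50.8 ± 22.6 (SD, n = 3) in NFFS medium and was 14.5-fold higher. Prdm1, which encodes BLIMP1, was 5.61-fold lower, Runx1 was 1.75-fold lower and Gata3, a regulator of the inner root sheath, was 1.34-fold lower. Msx2, a homeobox factor of the hair matrix, was also called lower (log2 difference -0.66, adjusted p = 0.035, limma). The calls of Gata3 and Msx2 ended with the arrays centered on their medians and without NFFSE replicate 2 or 3 or NFFS replicate 3, and that of Msx2 also without NFFSE replicate 1 or NFFS replicate 1. Runx1 was not called when its probe sets were averaged or without the intensity trend.

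**Figure D3:**
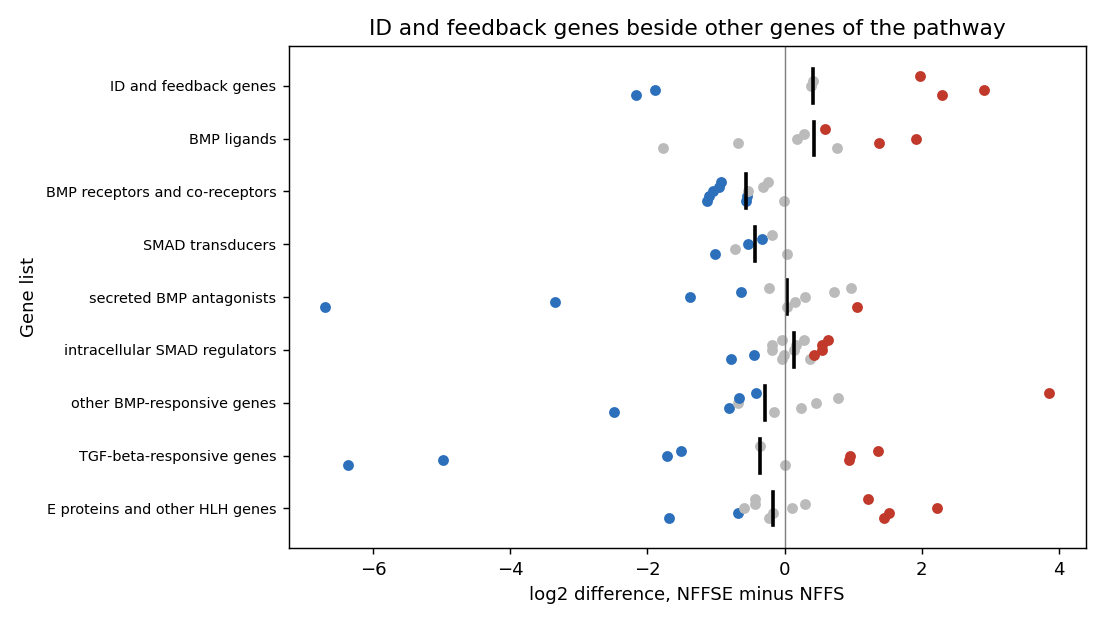
Log2 difference, NFFSE minus NFFS (horizontal axis), of each measured gene in the ID and feedback set and in 8 lists of the pathway (vertical axis). Each point is 1 gene, red for called higher, blue for called lower and grey for not called in limma, and black lines are list medians. The called receptors and SMAD transducers lie below 0, the called BMP ligands above 0, and the ID and feedback genes on both sides.

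The E proteins, the partners that ID proteins hold away from DNA, were lower in NFFSE for Tcf4 and Tcf12. Tcf4 signals averaged 839 ± 98.6 (SD, n = 3) in NFFSE medium and 2696 ± 294 (SD, n = 3) in NFFS medium, 3.22-fold lower (adjusted p = 1.3e-05, limma), and Tcf12 was 1.59-fold lower (adjusted p = 9.2e-04, limma). Tcf3 had a log2 difference of -0.43 (adjusted p = 0.12, limma). It was called lower with the mean of its probe sets (-0.90, adjusted p = 0.022, limma), with the replicate number as a block and without NFFSE replicate 1 (-0.63, adjusted p = 0.018, limma). Among the E proteins and other HLH genes together, 4 of 13 were called higher in NFFSE and 2 lower, and 7 were not called, with a median log2 difference of -0.17. Those that were higher were the clock-related repressor Bhlhe40 (2.75-fold), Mxd1, an antagonist of MYC (2.87-fold), Twist2 (4.65-fold) and the NOTCH target Hes1 (2.32-fold), whose call ended without the intensity trend (adjusted p = 0.053, limma).

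Smad7 and Bambi also respond to TGF-beta, and of 9 TGF-beta-responsive genes measured, 3 were called higher in NFFSE and 4 lower, and 2 were not called, with a median log2 difference of -0.35. Ccn2, a matricellular growth factor that is also a target of YAP, was 31.7-fold lower (119 ± 46.8 (SD, n = 3) in NFFSE medium and 3635 ± 745 (SD, n = 3) in NFFS medium), and Tagln, an actin-binding protein, was at background on 2 of the 3 NFFSE arrays and at least 27.0-fold lower. Thbs1, which encodes thrombospondin-1, was 2.84-fold lower, whereas Tgfbi, a secreted matrix protein, was 2.57-fold higher. Tgfbi and Thbs1 were not called by the methods' t-test after adjustment, nor Thbs1 with a floor under low signals (adjusted p = 0.052, limma).

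Markers of other cell types that express these genes were examined as well, since ID genes, Smad6 and Smad7 are prominent in endothelium. Of 9 endothelial markers, 0 passed the test in limma, 7 were dim in both media, and their summed signal was 362 to 409 on the NFFSE arrays and 267 to 428 on the NFFS arrays. At an unadjusted p under 0.05 there was 1 endothelial marker in limma, Tek, which was at background on all 3 NFFSE arrays, the methods' t-test called 0 after adjustment, and with a floor under low signals or quantile normalization 1 was called higher. Tie1 was at background on all 6 arrays. Of 8 fibroblast markers, Thy1 and Col1a2 were lower in NFFSE, and the summed signal was 386 to 424 in NFFSE and 510.2 to 650.3 in NFFS. The other 6 were not called, with log2 differences above 0 for Pdgfra, Lum, Col1a1 and Col3a1 and below 0 for Dcn and Pdgfrb. With the mean of all probe sets, 1 fibroblast marker was called lower and the list median was 0.035. Of 5 smooth muscle markers, Tagln and Acta2 were lower, and the summed signal was 139 to 289 in NFFSE and 1064 to 1225 in NFFS, whereas Myh11, Des and Cnn1 were dim in both media. The part of fibroblast and smooth muscle markers in the differences of Id4 and Bambi was not tested. The summed signal of 8 follicle keratinocyte markers was 112718 to 132261 in NFFSE and 107099 to 118446 in NFFS, and none of the 8 was dim. Of these markers, 4 were called higher in NFFSE and 1 lower in limma. Itga6 (2.42-fold) and Itgb4 (2.29-fold), integrin subunits of hemidesmosomes, Col17a1 (1.67-fold) and the basal keratin Krt14 (1.77-fold) were higher, and Krt15, a keratin of bulge cells, was 3.94-fold lower. The part of these markers in the differences of the ID genes was not tested. Melanocyte and leukocyte markers gave 0 calls in limma, of 6 each, with 0 and 0 at an unadjusted p under 0.05 and 0 by the methods' t-test after adjustment. Without the intensity trend 1 leukocyte marker was called higher. These melanocyte and leukocyte lists had summed signals of 318 to 351 and 267 to 388 in NFFSE and 292 to 317 and 331 to 373 in NFFS.

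**Figure D4:**
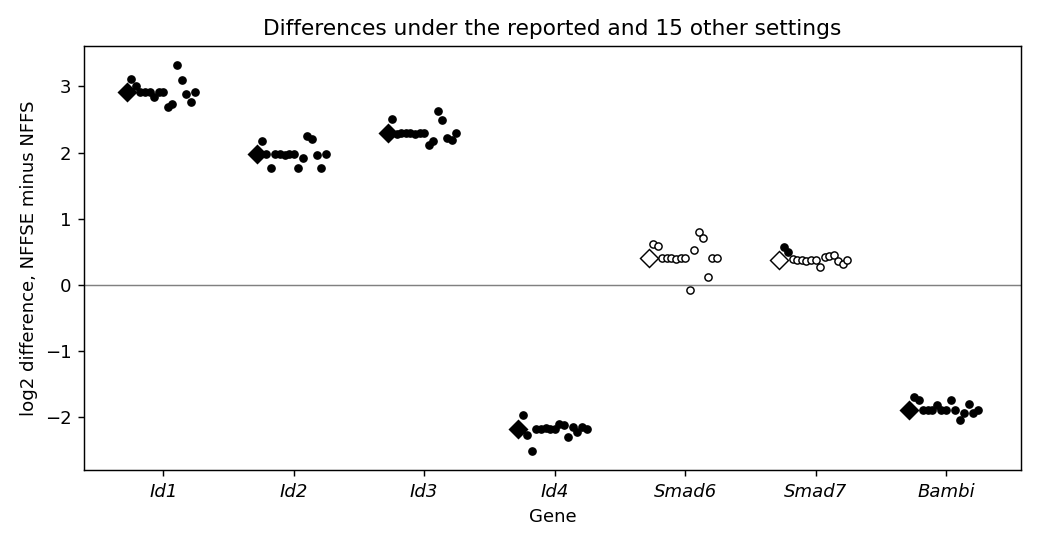
Log2 difference, NFFSE minus NFFS (vertical axis), of the 7 genes under the reported setting (diamonds) and 15 other settings (circles). Filled symbols are adjusted p under 0.05 and open symbols are not. Id1, Id2, Id3, Id4 and Bambi are filled in every setting, Smad7 is filled in 2 of them, and the Smad6 symbols are open, with 1 of them below 0.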

How the data were processed

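Total RNA of 6 cultures was hybridized to Mouse Genome 430 2.0 arrays. The deposited intensity values are MAS5 signals per the labels (no version is given), and the authors had scaled each array to a common trimmed mean (2% at each end), as a check of the values showed. The authors also chose the background correction and the summary over probes, and detection calls were not used here. Of 45101 probe sets, 64 controls were left out, 34945 had 1 gene symbol in a platform annotation, 932 had several and 9160 were not listed. Where a gene had several probe sets, the brightest by mean log2 signal stood for it.

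The log2 signals of all genes, and separately of all 45037 probe sets, were compared between media by limma 3.58.1 under R 4.3.3 (moderated variances with an intensity trend), without a replicate block. On simulated data with 200 changed genes, this fit called 18% of log2 changes of size 1 and 50% of those of size 2. It called 1 unchanged gene, and in that setting many changes of these sizes went uncalled. In the data 4773 genes were called, and the adjustment is stricter where few genes change. The simulated rates are therefore not rates for these data. SDs are of linear signals and folds are antilogs of log2 differences. The number of arrays limits the precision. A signal at or under 22.7 was called background, and folds against it are lower bounds. Dim means a mean below the 40th percentile in both media. Genes named are the 7 genes, from each list up to 4 called genes, by smallest p, and others named to complete a count after their values were seen. The genes and lists were chosen with earlier results of these data known. Arrays of equal replicate number were set side by side, since the series design describes separating cells between the media, although no label states that equal numbers mark 1 repeat, and deviations of these arrays from their media correlated at 0.066, 0.042 and 0.037 across genes. The alternatives were 2 other scalings, the mean of all probe sets, a filter on dim genes, a floor, 16 added to the signals, no trend, a replicate block, the methods' t-test and leaving out each array.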

Additional observations from a re-analysis of the deposited data

How the results depend on the processing

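Id1, Id2, Id3, Id4 and Bambi kept their direction and their calls under all 15 alternatives. Across these the log2 difference was 2.69 to 3.32 for Id1 (highest adjusted p = 0.028), 1.76 to 2.25 for Id2 (0.044), 2.11 to 2.62 for Id3 (0.031), -2.51 to -1.97 for Id4 (0.0081) and -2.04 to -1.69 for Bambi (0.015), with each highest p from the methods' t-test after adjustment. Smad7 was called under 2 scalings, at 0.58 and 0.50, and leaving out 1 array moved Smad6 from -0.075 (without NFFSE replicate 1) to 0.79 (without NFFSE replicate 3), not called in either case. With the replicate number as a block, the 7 genes gave 3 calls higher and 2 lower, and the adjusted p of Id1 was 2.4e-06, that of Smad7 0.051 and that of Smad6 0.25 (limma). Leaving out 1 array left 3 higher and 2 lower each time.

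Of the pathway genes, 14 to 16 were called higher and 22 to 27 lower without 1 array. The higher calls numbered 7 by the methods' t-test, 9 with no intensity trend and 11 with the floor, against 16, and the lower calls numbered 17 with the arrays centered on their medians, against 26. With the block these counts were 17 and 28. The cause was not tested.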

Other observations

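The genes whose pattern over the 6 arrays was nearest to each of the 7 genes were found by the root mean square difference of log2 signals after each gene was set to its own mean, among the genes whose mean reached the 60th percentile. Nearest to Id1 were Procr, which encodes the endothelial protein C receptor (0.27), and Oaf (0.28). Nearest to Id2 were the homeobox gene Pitx1 (0.12) and Zfp750, a factor of epidermal differentiation (0.20), and nearest to Id3 were Pitx1 (0.15) and Id2 (0.21). Id1 was in no list of the other ID genes. Fam3c (0.091) and Pi15 (0.12) were nearest to Id4, and Cdc42ep3 (0.11) and Coq8a (0.12) to Bambi. Smad7 had Usp48 (0.051) and Rab40c (0.054) as its nearest genes, whereas those of Smad6, Acvr1b (0.32) and Bcl11a (0.33), were farther away. These are distances over 6 arrays that share the difference between media, given as a description.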
